A study of Mus musculus with 4 samples.

Results

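Granulocyte-monocyte progenitors and promyelocytes of trabecular bone were taken as the cell barcodes in which the transcripts of Elane, Mpo and Prtn3 together made up at least 0.5% of all UMIs (unique molecular identifiers, which count captured RNA molecules without their PCR copies), among barcodes with at least 500 UMIs, at least 200 genes and at most 10% mitochondrial UMIs. The rule found 423 members among the 8765 trabecular barcodes that passed these filters (of 23216 in the whole series), 194 of 3977 in control and 229 of 4788 in GC. The members were chosen by the levels of Elane, Mpo and Prtn3, so those levels are given as a description. The study profiled callus and trabecular bone by single-cell RNA-Seq from male C57BL/6J mice aged 20 weeks that carried a placebo (control) or prednisolone at 6.25 mg/kg/d (GC), sampled at week 2. Prednisolone is a synthetic glucocorticoid, and the labels describe a slow-release pellet under the skin for all animals, whereas the study's methods give a pellet to intact mice and inject fractured mice daily. Cells came from bone that was flushed, crushed and digested with enzymes, and the number of mice behind a library is not given in the sources used here. Each of the 4 groups is 1 library, so the design holds no replicates, no test was run between control and GC, and every interval below is a 95% interval that covers counting error only. The control trabecular library held 41239842 UMIs and the GC trabecular library 45876714.

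Granulocyte-monocyte progenitors are bone marrow cells that divide and give rise to neutrophils and monocytes, and promyelocytes are the first stage of the neutrophil branch that fills with primary (azurophil) granules. Primary granules store serine proteases and myeloperoxidase, whose genes are transcribed early and then shut off, while the next stage, the myelocyte, makes the specific granules that hold proteins such as cathelicidin and lactoferrin. Lineage choice and granule timing are controlled by transcription factors of the C/EBP family, by PU.1 and by the opposing pair Gfi1 and Irf8.

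The genes that define the members lie in few places of the genome. Elane, the gene of neutrophil elastase (chr10:79886247-79888215, plus strand), and Prtn3, the gene of proteinase 3 (chr10:79874476-79883174, plus strand), are neighbors, whereas Mpo, the gene of myeloperoxidase, is at chr11:87793581-87804413 on the plus strand and Ctsg, the gene of cathepsin G, at chr14:56099881-56102574 on the minus strand (all positions are of GRCm38, in GENCODE M21, by Ensembl identifier). Chil3, the gene of a secreted chitinase-like protein (also called Ym1) that neutrophil precursors and some macrophages make, is at chr3:106147554-106167564 on the minus strand and is shown because among the members' genes it ranked highest in GC against control on the log2 scale once 5 CPM were added (CPM are UMIs of a gene per 1000000 UMIs summed). Each sequence below is 180 bases long, lies before the RefSeq start, holds no base of a GENCODE exon of the gene, comes from RefSeq on GRCm38.p6, and is written 5′ to 3′ on the gene's strand. Capitals mark matches on either strand to GAGGAA, the core that PU.1 binds, or to TTNNGNAA, a loose form of the site of C/EBP factors.
Elane (chr10:79886067-79886246, plus strand): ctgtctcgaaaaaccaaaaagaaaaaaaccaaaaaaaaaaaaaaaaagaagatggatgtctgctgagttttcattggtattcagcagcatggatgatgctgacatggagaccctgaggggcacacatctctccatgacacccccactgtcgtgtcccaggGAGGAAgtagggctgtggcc
Prtn3 (chr10:79879434-79879613, plus strand): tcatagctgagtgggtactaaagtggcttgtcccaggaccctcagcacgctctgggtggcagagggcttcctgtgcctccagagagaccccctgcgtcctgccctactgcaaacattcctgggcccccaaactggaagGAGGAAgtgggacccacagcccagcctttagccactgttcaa
Chil3 (chr3:106167565-106167744, minus strand): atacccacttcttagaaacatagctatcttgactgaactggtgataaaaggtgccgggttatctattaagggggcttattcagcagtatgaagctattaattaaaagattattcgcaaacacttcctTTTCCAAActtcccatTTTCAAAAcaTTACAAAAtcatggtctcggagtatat
The Elane and Prtn3 windows each held 1 match to GAGGAA and none to TTNNGNAA, and the Chil3 window held 3 matches to TTNNGNAA and none to GAGGAA. Among 32851 mouse promoters, 17.1% held GAGGAA and 27.2% held TTNNGNAA in the 180 bases directly before the RefSeq start. The Elane window ends 65 bases and the Prtn3 window 53 bases before that start, so these shares are of a stretch nearer to it, and the Chil3 window ends directly before it. The GENCODE span of Prtn3 begins upstream of its window. A match describes letters and was not tested as a binding site.

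The frequency of the members differed between the libraries by less than counting error. They made up 4.88% (4.23 to 5.59) of the filtered barcodes of control trabecular bone and 4.78% (4.20 to 5.43) of those of GC trabecular bone, a ratio of 0.980 (0.806 to 1.19). They were RNA-rich. The median member held 26321.5 UMIs and 4008.5 genes in control, and 26691 UMIs and 4102 genes in GC, against 6337 and 5725.5 UMIs for all filtered barcodes. They carried 14.0% of the filtered UMIs of control and 15.4% of those of GC. No member barcode occurred in both trabecular libraries, which shared 7 of their filtered barcodes. Doublets were not called, and 16 members of control and 27 of GC lay above the 99th percentile of UMIs of their library.

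By the values that chose them, the median member had 2.01% of its UMIs in Elane, Mpo and Prtn3 in control (highest 10.7%) and 2.20% in GC (highest 6.64%), against 0.167% and 0.152% in the free RNA of barcodes with 1 to 100 UMIs. Just inside the limit, at 0.5% to 0.6%, stood 12 members in each library, and just outside it, at 0.4% to 0.5%, stood 10 barcodes in control and 20 in GC. In control, Ctsg stood at 679.6 CPM just inside and 1713 CPM just outside, and in GC at 963 CPM inside and 880.0 CPM outside. Members with under 10 UMIs in the 3 genes numbered 9 in control and 4 in GC.

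Of the 5 marker genes, Ctsg and Ms4a3 were not used by the rule. Ctsg stood at 2538 CPM over the summed members in control and 2789 CPM in GC, against 10.5 and 7.31 CPM in other barcodes rich in specific granule transcripts, 44.1 and 22.5 CPM in barcodes with monocyte markers and 80.3 and 93.0 CPM in all remaining barcodes. Ms4a3, a membrane protein gene expressed at the granulocyte-monocyte progenitor stage, stood at 1023 CPM in control and 1167 CPM in GC, against at most 69.1 CPM in those other barcodes. Both markers that the rule did not use were higher in the summed members than in these 3 kinds of other barcodes, but at the limit in control both were lower just inside than just outside, with Ms4a3 at 286 and 531 CPM. In GC both were higher just inside, with Ms4a3 at 361 and 233 CPM. The genes that most separated the members from barcodes with specific granules also included C1qbp (300.1 CPM in control and 391 in GC), Nme2 (1157 and 1292 CPM), Mif (584 and 640.2 CPM) and Phgdh (171 and 214 CPM), the last of which opens the serine synthesis pathway. Prss57, a further serine protease of the azurophil granule, stood at 253 and 252 CPM, and Cst7, a cysteine protease inhibitor, at 141 and 152 CPM.

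The values of single members were wide and overlapped between the libraries for all markers. Elane had a median of 8229 CPM in control (81.5 to 35845 CPM) and 9801 CPM in GC (179 to 37862 CPM). Mpo had a median of 3418 CPM in control and 3774 CPM in GC, and was 0 in 3 and 1 members. Prtn3 had a median of 7810 CPM in control and 8354 CPM in GC. Ctsg had a median of 2019 CPM in control (up to 13841 CPM) and 2463 CPM in GC (up to 9904 CPM), with 7 and 8 members at 0. Cells of 1 library share their source, so this spread is not an error for the comparison of control with GC.

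Markers of other lineages were few but not absent. Of the macrophage list, C1qa was at 0 in the members of both libraries, and the most abundant of the 9 genes was Vcam1 at 88.5 CPM in control and 52.2 CPM in GC. The T and NK cell list summed to 677 and 639 CPM, nearly all of it Nkg7 (633 and 627 CPM), a granule membrane gene that the members expressed while all remaining barcodes had 32.7 and 73.8 CPM. The 10 stromal genes summed to 28 CPM in control and 21 CPM in GC, and the 6 megakaryocyte genes to 9 and 5 CPM, with 2 stromal genes at 0 in control and 4 in GC. The erythroid list summed to 3671 CPM in control and 2353 CPM in GC, led by Hbb-bs, against 111574 and 117199 CPM in free RNA. If all hemoglobin in the members were free RNA, its share of their UMIs would be 3.27% in control and 2.00% in GC. In each library 6 members had over 1% hemoglobin UMIs.

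Specific granule transcripts were used to divide the members into ranges. By Camp, Ltf, Ngp and Lcn2, the genes of cathelicidin, lactoferrin, neutrophilic granule protein and lipocalin 2, a low range (under 1% of UMIs), a middle range (1% to 5%) and a high range (at least 5%) were set; these are ranges of a score and not cell types. The low range held 130 of 194 members in control (67.0%, 59.9 to 73.6) and 174 of 229 in GC (76.0%, 69.9 to 81.4). The middle range held 24 and 27 members. The high range held 40 members in control (20.6%, 15.2 to 27.0) and 28 in GC (12.2%, 8.28 to 17.2). Specific granules are made by the myelocyte, so the name of progenitors and promyelocytes may not hold for the high range. The intervals of the low and the high range overlapped between the libraries. With 1 library each, a difference between mice cannot be told apart from an effect of GC.

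**Figure D1:**
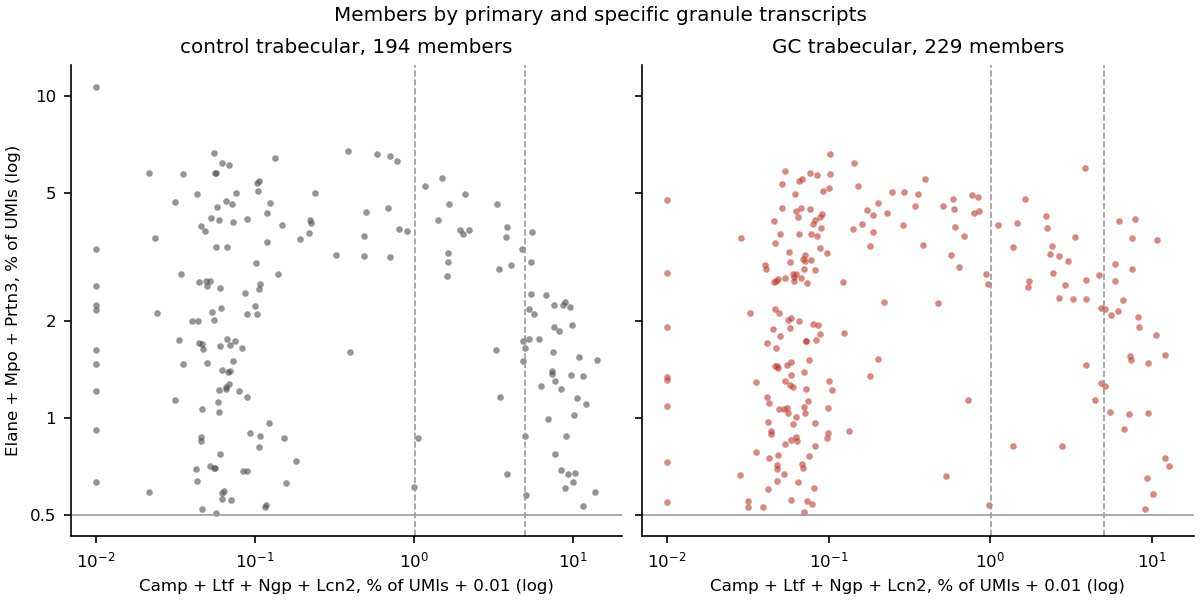
Each point is 1 member, with the percent of its UMIs in Camp, Ltf, Ngp and Lcn2 (plus 0.01, log axis) against the percent in Elane, Mpo and Prtn3 (log axis). The solid line is the limit of 0.5% that chose the members, dashed lines mark 1% and 5%. The highest shares of Elane, Mpo and Prtn3, 10.7% in control and 6.64% in GC, belong to members of the low range.

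From the low to the high range Mpo, Ctsg and Prtn3 were lower and late neutrophil genes higher in both libraries, whereas Elane was lower in control and higher in GC. Mpo stood at 4627, 3945 and 1150.1 CPM in the low, middle and high range of control and at 4186, 2995 and 1784 CPM in GC. Ctsg stood at 3252, 2280.0 and 275 CPM in control and at 3291, 1799 and 632 CPM in GC. Elane was highest in the middle range, at 17087 CPM in control and 16263 CPM in GC, against 9769.9 and 10174 CPM in the low range and 7511 and 11297 CPM in the high range. Prtn3 stood at 10131 and 6177 CPM in the low and high range of control, and at 9753 and 6452 CPM in GC. Fcnb, the gene of ficolin B, stood at 150.1, 918 and 1435 CPM in control and at 137, 706 and 1001 CPM in GC. S100a8, a subunit of calprotectin, stood at 8852 CPM in the low and 108301 CPM in the high range of control, and at 8026 and 87704 CPM in GC. Since Elane, Mpo and Prtn3 chose the members, their course along the ranges is a description.

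Lineage factors differed along the ranges in both directions. Myb, a factor of dividing progenitors, stood at 194 CPM in the low and 29.9 CPM in the high range of control, and at 185 and 25.3 CPM in GC. Irf8, which steers progenitors toward monocytes, stood at 201 and 1.99 CPM in control, and at 162 CPM and 0 UMIs in GC. The low range also held members with monocyte branch transcripts, given below, and their part in this difference was not tested. Cebpe, which drives specific granule genes, stood at 104 and 421 CPM in control, and at 111 and 404 CPM in GC. Spi1, the gene of PU.1, stood at 303 and 397 CPM in control, and at 304 and 483 CPM in GC. Cd34, a surface marker of progenitors, had 55.1 CPM in the low range of control and 53.2 CPM in that of GC, and no UMI in the high range of either library.

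Ribosome production and protein folding genes were also lower toward the high range, whereas cell cycle genes differed less along the ranges. The 22 ribosome biogenesis genes summed to 5150 CPM in the low, 2179 CPM in the middle and 918 CPM in the high range of control, and to 5853, 2126 and 1237 CPM in GC. Among them Npm1, a nucleolar protein gene, stood at 1929 and 266 CPM in the low and high range of control. The 25 genes of folding and transport in the endoplasmic reticulum summed to 9387 CPM in the low and 3307 CPM in the high range of control, and to 9650 and 4107 CPM in GC. By contrast, the 52 genes of G2 and mitosis summed to 6106, 7092 and 7265 CPM along the ranges of control and to 6133, 7708 and 7951 CPM in GC. The 37 DNA replication genes summed to 3581 CPM in the low and 3334 CPM in the high range of control, and to 3108 and 3332 CPM in GC. Other barcodes with specific granules had 817 and 821 CPM of the replication list. They share the limit of 5% with the high range and differ from it by rule only in the share of Elane, Mpo and Prtn3.

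**Figure D2:**
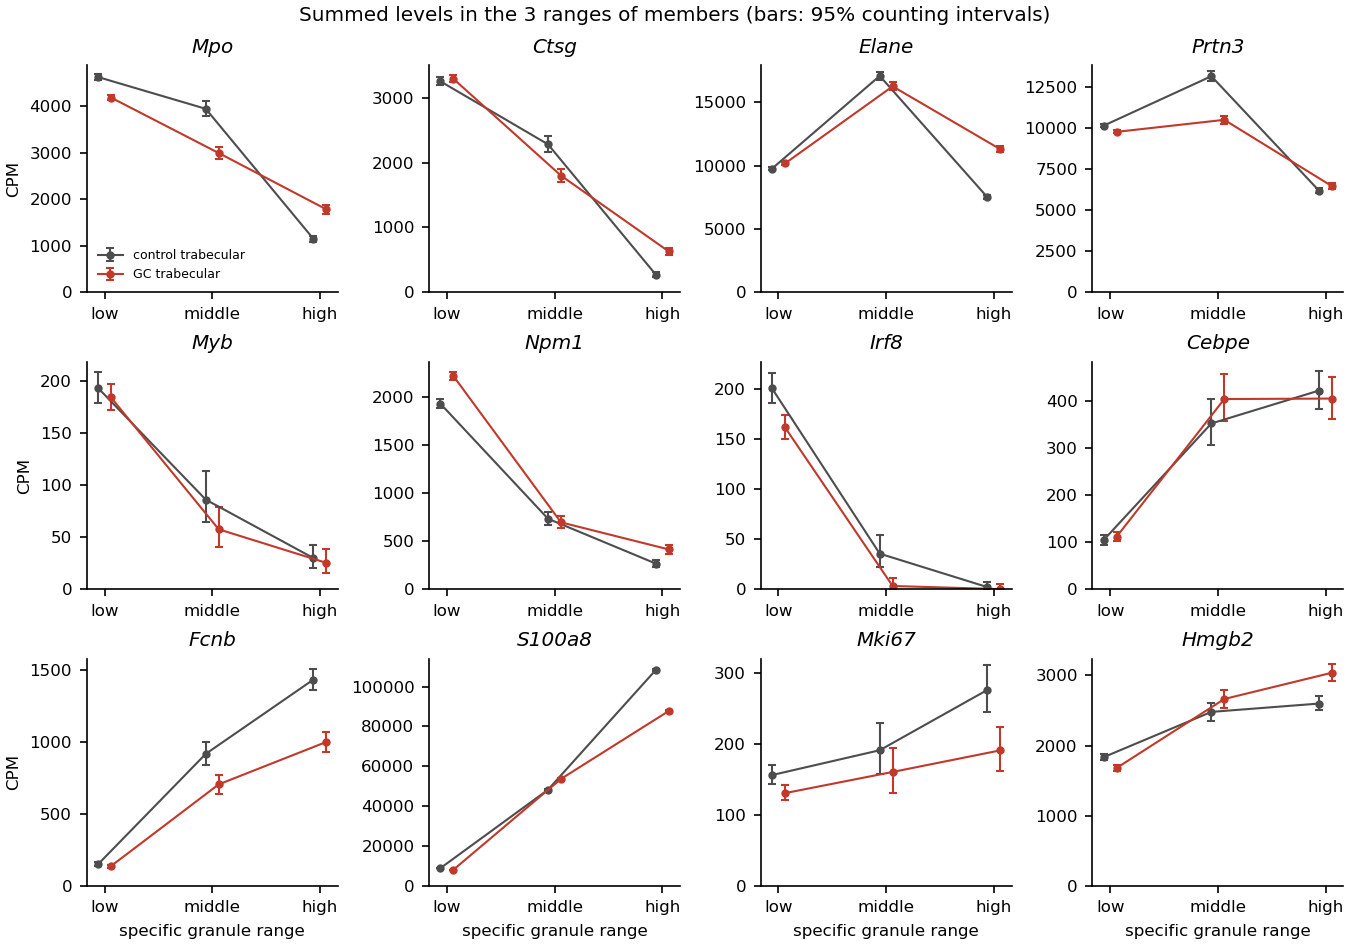
Summed level (CPM, linear axes from 0) of 12 genes in the low, middle and high range of members, in control and GC trabecular bone, with 95% counting intervals. Mpo, Ctsg, Myb, Npm1 and Irf8 are lower and Cebpe, Fcnb and S100a8 higher toward the high range in both libraries, and Elane and Prtn3 are highest in the middle range.

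The low range was also divided at a gate share (percent of UMIs in Elane, Mpo and Prtn3) of 2%. The limit was chosen after the values were seen and the gate share is what chose the members, so the values below are a description. The division gave 58 members under and 72 at or over the limit in control, and 83 and 91 in GC. In control 9 of these members lay within 0.2 percentage points of the limit, and in GC 13. Those under the limit had more transcripts of the monocyte branch and of early progenitors. Irf8 stood at 316 CPM (290.4 to 344) under and 81.8 CPM (68.7 to 96.7) over the limit in control, and at 284 and 33.8 CPM in GC. Klf4, a factor of monocyte development, stood at 249 and 59.1 CPM in control and at 279.7 and 16.3 CPM in GC. Csf1r, the receptor of macrophage colony-stimulating factor, stood at 47.0 and 10.2 CPM in control and at 47.3 and 4.83 CPM in GC. Cd34 stood at 85.3 and 23.9 CPM in control and at 87.5 and 17.1 CPM in GC. The early progenitor list summed to 1060 and 588 CPM in control and to 979 and 572 CPM in GC. Kit, the receptor of stem cell factor, was nearly level, at 54.0 and 53.2 CPM in control and 40.2 and 40.0 CPM in GC. The dendritic cell list was also higher under the limit, at 420 and 154 CPM in control and 394 and 88.7 CPM in GC. Members over the limit had more of the neutrophil branch. Cebpe stood at 30.8 CPM (23.0 to 40.2) under and 179.8 CPM (160.1 to 201) over the limit in control, and at 37.3 and 189 CPM in GC. Gfi1, which represses the monocyte program, stood at 7.55 and 20.3 CPM in control and at 8.37 and 19.8 CPM in GC. Fcnb stood at 32.5 and 271 CPM in control and at 12.6 and 268 CPM in GC. The monocyte progenitor list of 15 genes summed to 3616 and 1885 CPM in control and to 3432 and 1314 CPM in GC.

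Members of the 2 trabecular libraries were close to each other for most genes. Of 8459 genes with at least 50 UMIs over the members of both libraries, 96.8% had a log2 ratio of GC over control (5 CPM added) between -0.5 and 0.5, and the median was 0.02. At least 2-fold higher in GC were 8 genes (0.0946% of those tested), and at least 2-fold lower were 19 genes (0.225%). The higher genes were Chil3, Tulp3, Crispld2, Glul, Serpine2, Orm1, Stfa2l1 and Stfa1. Of these, Glul makes glutamine from glutamate, Orm1 encodes the acute-phase protein orosomucoid 1, Serpine2 a serine protease inhibitor, and Stfa1 and Stfa2l1 are stefin A genes of a near-identical family, so their reads may be split. These differences were not particular to the members. In other barcodes with specific granules the log2 ratio was 2.18 for Glul, 1.99 for Serpine2, 1.44 for Crispld2 and 1.18 for Orm1. It was 0.82 for Stfa2l1, 0.45 for Stfa1 and -0.11 for Tulp3. In free RNA Glul stood at 39.3 CPM in control and 113 CPM in GC, whereas Stfa2l1 was lower in GC, at 237 and 186 CPM. With 20 CPM added, Glul, Serpine2 and Orm1 had log2 ratios of 0.82, 0.74 and 0.88, short of 2-fold, and in the low range Glul and Serpine2 had 0.85 and 0.78. In the low range alone, 5 of 7970 genes were at least 2-fold higher (0.0627%) and 26 at least 2-fold lower (0.326%).

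Chil3 had the highest log2 ratio with 5 CPM added. Tulp3, with 7 UMIs in control and 65 in GC of which 1 member held 64.6%, had a higher ratio without added CPM, 7.60 (3.49 to 19.7). Chil3 stood at 1160.4 CPM over the members of control and 4644 CPM over those of GC, and the 95% interval of their ratio was 3.89 to 4.12. The median member had 116 CPM in control (up to 9822 CPM) and 1030 CPM in GC (up to 30693 CPM), so the members of the libraries overlapped. No single member decided this value, since the member with the most Chil3 UMIs held 4.97% of the total in control and the log2 ratio was 2.00 with all members and 2.02 without that member of each library. The ratio was seen in each range. Chil3 stood at 297 and 1663 CPM in the low range (5.60-fold, 5.24 to 5.98), at 1077 and 10893 CPM in the middle range, and at 4131 and 17144 CPM in the high range (4.15-fold, 4.01 to 4.30).

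By the same division of the low range, again as a description, Chil3 stood at 395 CPM in control and 694 CPM in GC among members with a gate share under 2%, and at 197 and 2679 CPM among those at or over 2%. Single members weighed on these sums. In control 1 member held 23.2% of the Chil3 UMIs under the limit and 1 held 21.6% at or over it, and in GC 11.2% and 7.79%. The median member had 29.3 CPM in control and 172 CPM in GC under the limit, and 62.2 and 1002 CPM at or over it. Members with over 1000 CPM of Chil3 numbered 6 of 58 in control and 16 of 83 in GC under the limit, and 4 of 72 and 46 of 91 at or over it. The members on either side of the limit were not alike in the libraries in other genes. The ratio of GC over control at or over it was 1.05 (0.905 to 1.22) for Cebpe, 0.988 (0.874 to 1.12) for Fcnb and 0.993 (0.977 to 1.01) for S100a8, but 0.413 (0.309 to 0.550) for Irf8 and 0.275 (0.183 to 0.405) for Klf4. Under it the ratio was 1.21 (0.853 to 1.74) for Cebpe, 0.386 (0.239 to 0.613) for Fcnb, 0.543 (0.521 to 0.566) for S100a8, 0.897 (0.801 to 1.01) for Irf8 and 1.12 (0.993 to 1.27) for Klf4. The part of such differences in the level of Chil3 was not tested.

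Chil3 was not particular to the members. It stood at 5723 CPM in control and 17991 CPM in GC in the other barcodes with specific granules, at 3566 and 15335 CPM in those with monocyte markers, at 491 and 4299 CPM in all remaining barcodes, and at 1611 and 5007 CPM in free RNA. With the free RNA subtracted, the log2 ratio in the members was 2.01. In the callus the 17 members of control had 74 CPM and the 17 of GC 252 CPM. Of these, 13 of control and 8 of GC had no Chil3 UMI, and the highest member had 1527 and 2106 CPM. With so few members a single cell can set such a level.

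**Figure D3:**
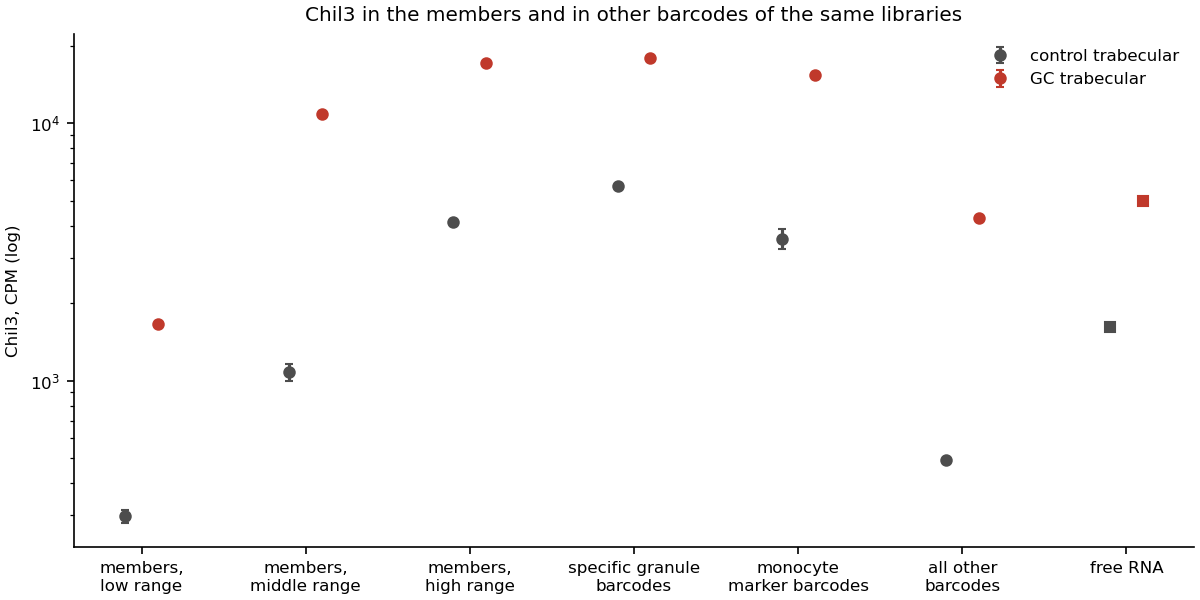
Chil3 level (CPM, log axis) in the 3 ranges of members, in 3 kinds of other barcodes and in free RNA (squares, barcodes of 1 to 100 UMIs) of control and GC trabecular bone, with 95% counting intervals for the circles. GC is higher than control in each of the 7 places, from 297 against 1663 CPM in the low range to 5723 against 17991 CPM in other barcodes with specific granules.

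Part of the genes that were 2-fold lower in GC rested on 1 member of control. Of the 19 genes, 10 had over 50% of their control UMIs in a single member. Ighg1, an immunoglobulin heavy chain gene, had 536 UMIs in control, 530 of them in 1 member, and 0 in GC. Igkc, the kappa light chain gene, had 89.8% of its 2707 control UMIs in 1 member, and Prg2, a gene of eosinophil and basophil granules, 97.8% of 900 UMIs. Mcpt8 and Fcer1a, genes of basophils and mast cells, had 64.2% and 51.5% in 1 member, and without the top member of each library Mcpt8 had a log2 ratio of -0.16 and Fcer1a, still past 2-fold, of -1.13. Ccl5, a chemokine gene of T and NK cells, had 53.0% in 1 member and a log2 ratio of -1.24 without the top members. Without the member with the most UMIs of each gene, 9 of the 19 genes stayed at least 2-fold lower and 5 of the 8 stayed at least 2-fold higher. Igkc then had a log2 ratio of 0.84 and Prg2 of 0.95, both in the other direction.

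The genes that stayed 2-fold lower without that member included interferon-induced ones. Ifi27l2a stood at 16.8 CPM in control and 3.28 CPM in GC (ratio 0.195, 0.113 to 0.320), and Ifi27 at 53.3 and 23.9 CPM. Rsad2, which encodes the antiviral protein viperin, stood at 11.2 and 1.15 CPM (ratio 0.102, 0.0393 to 0.225). The 56 control UMIs of Rsad2 lay in 10 members, 20 of them in 1 member, and its 7 GC UMIs in 5 members. Of the 20 GC UMIs of Ifi27l2a, 1 member held 11. Ifi27 is not in the list of interferon-induced genes and was named after its value was seen. Of the 19 genes of that list, 8 were tested and 2 were at least 2-fold lower, against 0.225% of all genes tested. Of these 8, 1 had a positive log2 ratio and the median was -0.21, against 0.02 over all genes tested. Olfm4, the gene of olfactomedin 4 in a subset of neutrophils, stood at 32.7 and 8.36 CPM, with 35.0% of the control UMIs in 1 member. Its direction turned in the middle range, at 5.07 CPM in control and 53.0 CPM in GC. In the low range Olfm4 stood at 8.54 and 1.29 CPM, and in the high range at 131 and 13.9 CPM. Hspa1a, a heat shock gene that cell isolation can induce, stood at 15.8 and 2.13 CPM. With 20 CPM added, Ifi27l2a, Rsad2, Ifi27, Hspa1a and Olfm4 had log2 ratios of -0.66, -0.56, -0.74, -0.69 and -0.89, all short of 2-fold, and so had Ifi27l2a with free RNA subtracted (-0.98), Olfm4 with equal weight for the ranges (-0.94) and Ifi27 with the gate at 1% (-0.71). Ifi27l2a was also lower in all remaining barcodes, at 288 CPM in control and 70.7 CPM in GC, and in free RNA, at 219.97 and 38.4 CPM.

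**Figure D4:**
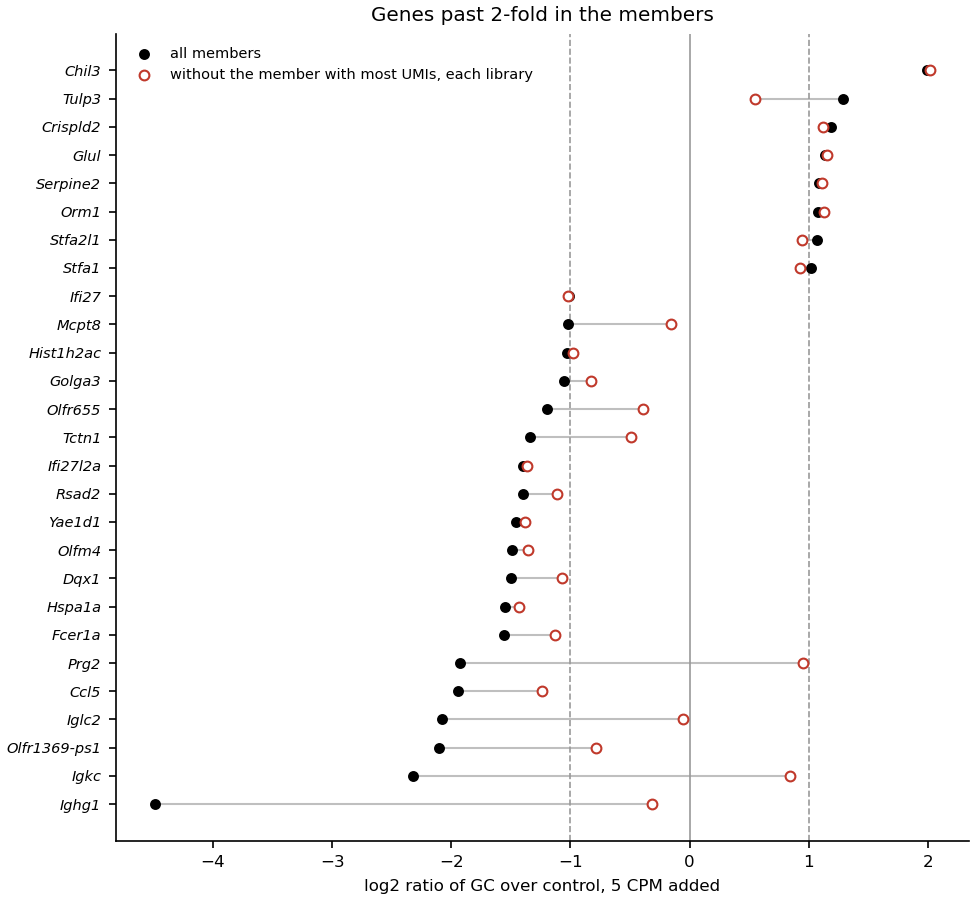
Log2 ratio of GC over control (5 CPM added) of the 27 genes at least 2-fold higher or lower in the members, over all members (filled) and without the member with the most UMIs of that gene in each library (open). Dashed lines mark 2-fold. Ighg1, Igkc, Prg2 and Iglc2 lie past 2-fold with all members and short of it without that member, and Chil3 is at 2.00 and 2.02.

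Primary granule genes had nearly the same levels in both libraries. All 19 genes of the list were tested, none was 2-fold higher or lower, 11 had a positive log2 ratio and the median was 0.03. Without Elane, Mpo and Prtn3, 10 of 16 had a positive log2 ratio and the median was 0.06. Elane, Mpo and Prtn3, which chose the members, stood at 10183, 3847 and 9691 CPM in control and at 10961, 3749 and 9401 CPM in GC. Lyz2, a lysozyme gene that monocytes and later neutrophils also express, had the lowest ratio, at 1346 CPM in control and 894 CPM in GC. Serpinb1a, an inhibitor of elastase and its relatives, stood at 470.3 CPM in control and 589 CPM in GC, 1.25-fold higher (1.19 to 1.32).

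Most specific granule genes were lower in GC over all members, and Chil3, Hp and Lcn2 were the exceptions. Of 14 genes, all tested, 1 was 2-fold higher (Chil3) and 1 was 2-fold lower (Olfm4), against 0.0946% and 0.225% of all genes tested. Of the 14, 11 had a negative log2 ratio and the median was -0.47. Camp stood at 12517 CPM in control and 8192 CPM in GC (ratio 0.654, 0.647 to 0.662), Ltf at 222 and 115 CPM (0.517, 0.470 to 0.569), and Fcnb at 499 and 309 CPM (0.619, 0.583 to 0.657). Hp, the haptoglobin gene, stood at 810 CPM in control and 1136 CPM in GC (1.40-fold, 1.35 to 1.46). Mmp8, the neutrophil collagenase gene of a separate list of later neutrophil genes, stood at 37.7 and 79.7 CPM (2.12-fold, 1.78 to 2.52), a log2 ratio of 0.99 with 5 CPM added. These sums hold 40 high range members of control and 28 of GC. Camp, one of the genes that set the ranges, had a ratio of 1.08 (1.01 to 1.16) in the low, 1.03 (0.999 to 1.05) in the middle and 0.911 (0.899 to 0.924) in the high range, so its direction over all members turned within the low range. Fcnb, which the ranges did not use, had a ratio of 0.914 (0.812 to 1.03) in the low and 0.698 (0.639 to 0.761) in the high range. Cybb, a subunit of the NADPH oxidase, had ratios of 0.855 (0.748 to 0.977) and 0.807 (0.718 to 0.907) there.

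Glucocorticoid target genes were at most modestly higher in the members. Of 24 genes of the list, 18 were tested, none was 2-fold higher or lower, 15 had a positive log2 ratio and the median was 0.19. Tsc22d3, which encodes the glucocorticoid-induced leucine zipper, stood at 43.3 CPM in control and 72.0 CPM in GC, 1.66-fold higher (1.41 to 1.97). Fkbp5, a co-chaperone of the glucocorticoid receptor, stood at 25.4 and 34.4 CPM, 1.35-fold higher (1.08 to 1.70). The same gene stood at 14.0 and 39.3 CPM in other barcodes with specific granules and at 14.7 and 75.6 CPM in all remaining barcodes of the same libraries. Mt1, a metallothionein gene, stood at 426 and 489 CPM in the members and at 92.5 and 283 CPM in all remaining barcodes. Klf9 had 48.3 and 49.0 CPM in the members and a log2 ratio of 1.06 in other barcodes with specific granules and 1.19 in all remaining ones. Txnip stood at 54.5 and 86.1 CPM, Dusp1, a phosphatase of MAP kinases, at 28.8 and 45.4 CPM, and Il1r2, the decoy receptor of interleukin 1, at 29.4 and 49.4 CPM. Nr3c1, the receptor gene itself, stood at 31.4 CPM in control and 25.7 CPM in GC (ratio 0.819, 0.652 to 1.03).

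Over all members the ribosome biogenesis list was modestly higher in GC, the replication list modestly lower, and the G2 and mitosis list nearly level. Ribosome biogenesis genes, all 22 tested, had a median log2 ratio of 0.29, 20 of them positive and none past 2-fold, with 3947 CPM in control and 4862 CPM in GC. In the low range alone their median was 0.16. The replication list of 37 genes had a median of -0.15, 30 of them negative, and summed to 3487 CPM (3435 to 3539) in control and 3112 CPM (3068 to 3156) in GC. Pcna, a clamp of DNA polymerase, stood at 296 and 238 CPM, and Top2a, a topoisomerase of dividing cells, at 281 and 196 CPM. The list of G2 and mitosis had a median of 0.00, with 51 of 52 genes tested, and summed to 6456 CPM (6385 to 6527) in control and 6535 CPM (6471 to 6599) in GC. By the division of the low range at a gate share of 2%, the sums of this list went in opposite directions. The ratio of GC over control was 0.879 (0.858 to 0.900) under the limit and 1.19 (1.16 to 1.23) at or over it.

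Receptors and lineage factors were close between the libraries. Of 16 growth factor receptor genes, 13 were tested, none was past 2-fold and the median was -0.15. Csf3r, the receptor of granulocyte colony-stimulating factor, stood at 54.1 CPM in control and 43.0 CPM in GC (ratio 0.794, 0.668 to 0.945), and Kit, the receptor of stem cell factor, at 45.3 and 33.3 CPM (0.735, 0.605 to 0.893). Cxcr4, which holds granulocytes in the marrow, stood at 93.5 and 68.6 CPM (0.733, 0.641 to 0.838). Of 20 granulopoiesis factors, 18 were tested, none was past 2-fold and the median was -0.03. Irf8 stood at 141 CPM in control and 124 CPM in GC, and Cebpe at 197 and 180.2 CPM. Of 15 monocyte progenitor genes, 14 were tested, none was past 2-fold and the median was -0.07, while F13a1, the gene of a coagulation factor subunit in monocyte progenitors, stood at 142 and 215 CPM (1.52-fold, 1.39 to 1.67). Klf2, which a cell isolation response can also induce, stood at 384 and 633 CPM (1.65-fold, 1.56 to 1.74).

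Metabolic lists had medians near that of all genes, which was 0.02. Of 18 glycolysis genes, all tested, 12 had a positive log2 ratio, none was past 2-fold and the median was 0.08. Of 20 fatty acid oxidation genes, 17 were tested, 9 were positive, none was past 2-fold and the median was 0.09. Of 25 genes of protein folding in the endoplasmic reticulum, 24 were tested, 17 were positive, none was past 2-fold and the median was 0.11.

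**Figure D5:**
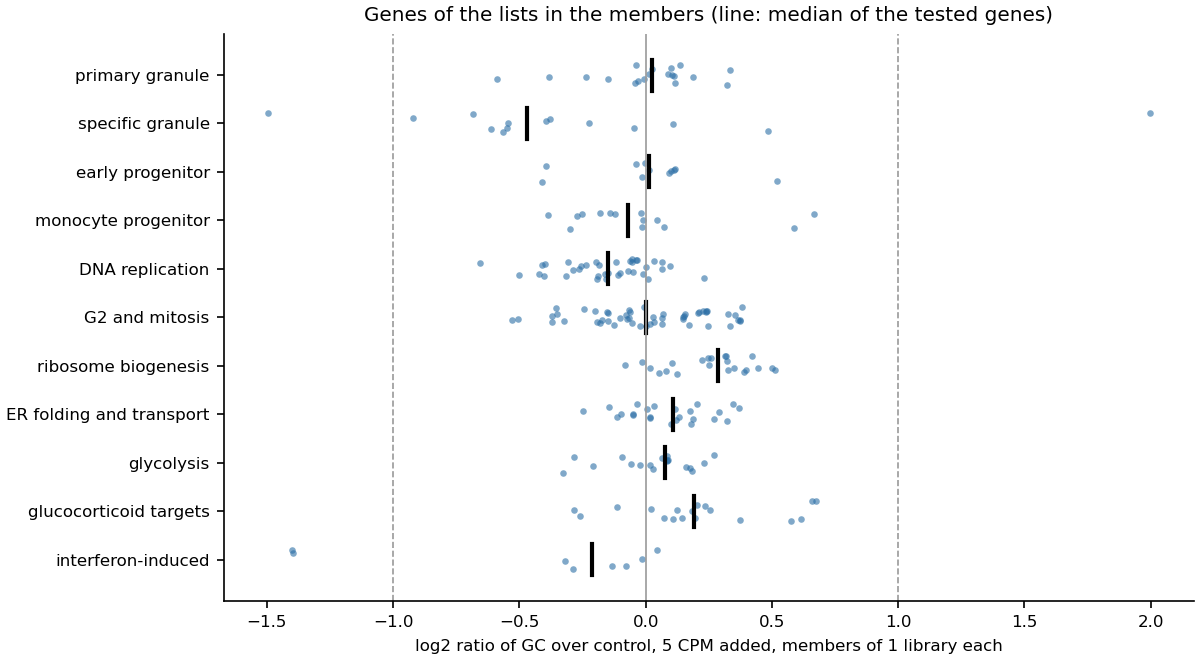
Log2 ratio of GC over control in the members (5 CPM added, 1 library each) of the tested genes of 11 lists, 1 point a gene, with the list's median as a line and dashed lines at 2-fold. Medians run from -0.47 for specific granule genes to 0.29 for ribosome biogenesis genes, and Chil3, at 2.00, is the only gene of these lists past 2-fold upward.

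In the callus the same rule found 17 of 7133 filtered barcodes in control (0.238%) and 17 of 7318 in GC (0.232%). These held 242423 and 230581 UMIs in all, and 14 and 15 of them were in the low range. The few members of the callus allow no more than a description, and with so few of them a single cell can set a level.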

How the data were processed

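The authors made the deposited matrices with Cell Ranger (version 4 or 4.0.0 per the file headers, 5.0.1 with Seurat 3.2.0 and mm10 in the submitters' processing notes). As deposited by the authors, the values are raw UMI counts of genes in barcodes. Of the matrices, 3 list 6794880 barcodes, empty ones included, and that of GC callus lists 7762.

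From these counts the members were found by the rule in the text, and their UMIs were summed per library. CPM is per 1000000 summed UMIs, with exact Poisson intervals. Intervals of ratios condition on the sum of both Poisson counts and are exact, and shares have Clopper-Pearson intervals, all at 95%. Log2 ratios add 5 CPM and ask for 50 UMIs over both libraries. The other barcodes were divided into those with at least 5% of UMIs in Camp, Ltf, Ngp and Lcn2, those with at least 0.5% in Csf1r, Ccr2, F13a1, Ly86 and Ms4a6c, and the rest. Genes were named from 31 lists, from the 12 highest and 12 lowest log2 ratios at 100 CPM or more, and from the 10 genes highest in the members over each kind of other barcode. Genes past 2-fold that fall outside this rule were chosen after their values were seen. The members and lists were chosen with earlier results of these data known. Alternatives covered the gate, filters, mixed barcodes, added CPM, minimum counts, weighting, scaling, free RNA and depth. Gene symbols on 2 rows were read from the row with more UMIs. Python 3.11.15, numpy 2.4.6, scipy 1.17.1, pandas 2.3.3 and matplotlib 3.10.9 were used. The calculation was tested on simulated Poisson counts summed per library. These hold no spread between cells, so the test does not show how well the intervals cover genes whose UMIs gather in single members.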

Additional observations from a re-analysis of the deposited data

Results flagged for a closer look

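Some genes ran in opposite directions in the members of trabecular bone and in those of the callus. The differences were not tested, each side rests on 1 library per condition, and the callus had 17 members in each. For Camp the log2 ratio (GC over control) was -0.61 in trabecular bone and 3.06 in the callus, where 1 member held 63.2% of the GC UMIs and 87.1% of the control UMIs. Ngp had -0.55 and 1.18, S100a8 -0.53 and 0.61, and S100a9 -0.52 and 1.31. For S100a9 1 callus member held 54.5% of the control UMIs, and for Ngp 1 held 72.3% of the control UMIs and 1 held 56.0% of the GC UMIs. Cited2, a transcriptional co-regulator, had 0.51 and -1.09. Top2a had -0.51 and 0.51, and Gm10076, a ribosomal protein pseudogene whose reads may belong to its parent gene, 0.76 and -0.93.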

How the results depend on the processing

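The share of members depended on the gate, which at 0.25% gave 6.03% in control and 5.89% in GC and at 1% gave 3.80% and 3.82%. Without hemoglobin-rich barcodes in the denominator the share was 5.22% in control and 5.45% in GC. Genes at least 2-fold higher in GC, 8 in the text, were 4 with the gate at 0.25%, 5 at 1%, 16 with 1 CPM added, 1 with 20 CPM added, 4 at 200 UMIs or more, 24 by the mean over members, 15 with free RNA subtracted and 5 in the low range. Genes at least 2-fold lower, 19 in the text, were 50 with 1 CPM added, 5 with 20 CPM added, 8 at 200 UMIs or more, 67 by the mean over members, 3 after thinning to 1000 UMIs (which left out 15 and 9 members) and 10 without the top member of each gene. The log2 ratio of the replication list was -0.11 with the gate at 0.25%, -0.12 with equal weight for the ranges and -0.20 in the low range, and that of G2 and mitosis 0.11 with the gate at 1% and 0.091 with equal weight. With range limits at 2% and 10%, the high range held 4.64% of members in control and 2.62% in GC. Igkc turned to 0.87 without mixed barcodes and 0.84 without its top member, and Prg2 to 0.16 by the mean over members and 0.95 without its top member. Chil3 stayed between 1.96 and 2.46 in 19 alternatives. Ifi27l2a stayed between -2.06 and -0.66 and Hspa1a between -2.43 and -0.69 in 17 alternatives each, and both had too few UMIs for a value at 200 UMIs or more and after thinning. Olfm4 stayed between -1.85 and -0.89 in 17, with too few after thinning and in the low range. Rsad2 stayed between -2.51 and -0.56 in 14, and Ifi27 between -1.17 and -0.71, Glul between 0.82 and 1.61 and Orm1 between 0.88 and 1.63 in 18 each, where Serpine2 was at its lowest 0.74. With the gate at 0.25% Glul had 0.996, Serpine2 0.99 and Ifi27 -0.98. Glul, Serpine2, Orm1, Rsad2, Ifi27 and Ighg1 had too few after thinning, Rsad2 also with the gate at 1%, without mixed barcodes, at 200 UMIs or more and in the low range, Ighg1 also without mixed barcodes, and Prg2 with the gate at 1% and without basophil, mast cell and eosinophil members. The settings with the low range alone, without basophil, mast cell and eosinophil members and without the top member, and the division of the low range at 2%, were chosen after seeing the data. No paired analysis was possible because each group is 1 library. With 1 library a group, intervals cover counting error and not the difference between mice.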
